A study of Mus musculus with 2 samples.

Results

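The genes described here are those that switch apoptosis on and off: p53 and its regulators and targets, the Bcl2 family, the caspases, the inhibitor of apoptosis proteins (IAPs) and the death receptor complex. They were listed by name as 39 gene symbols, with no measured value in the rule, and 35 of these had probe sets of their own on the array, 467 probe sets in all, out of 16358 genes and 209279 probe sets with a single gene symbol. The expression of Trp53, Bax, Birc2 and Tradd was not analysed here. RNA of Smad3-/- and WT embryonic stem cells (ESCs), cultured pluripotent cells, was read on Affymetrix exon arrays for the mouse, and each genotype had a single array, so n = 1. Both samples are labelled as of C57BL/6 background, and both were grown in ES cell medium with LIF and 2i, that is, with CHIR99021 and PD0325901, inhibitors of the kinases Gsk3 and Mek. No agent that damages DNA or triggers apoptosis is named for either sample, so the values describe cells in routine culture. The methods derive feeder-free lines by passaging away the feeder cells, and they do not name the deleted part of Smad3.

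In mammalian cells p53 is held at a low level by Mdm2 and Mdm4, and after DNA damage it turns on genes of cell cycle arrest and of apoptosis. BH3-only proteins then neutralize the anti-apoptotic Bcl2 proteins, Bak1 and its relatives open the outer mitochondrial membrane, and cytochrome c released through it assembles with Apaf1 into the apoptosome that activates Casp9. Death receptors such as Fas act on a separate route, through Fadd and Casp8, which Cflar restrains. Mouse ESCs are known to be readily killed by DNA damage and to hold little of the G1 checkpoint of differentiated cells.

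On this array each gene is read by several probe sets along its transcript. Its probe sets were summarised by their median, giving a gene signal for each array, and the gene difference was the median of the probe set differences, Smad3-/- minus WT, both on the log2 scale. The methods set 1.5-fold, a log2 difference of 0.585, as the threshold. Without replicates no test was made, differences are a description of these arrays, and fewer cells of a type could not be told apart from less RNA per cell. A gene was called expressed where the higher of its 2 signals was at or above an expression floor of 8.64, which splits the genes at their median, and no detection call was used.

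The arrays as a whole had a median signal of 8.89 for Smad3-/- ESCs and 8.80 for WT ESCs, and the median gene difference was 0.035. All 12 ES cell markers were expressed, with a median signal of 12.97 in Smad3-/- ESCs and 12.81 in WT ESCs. Of 15 fibroblast markers for feeder cells 1 was expressed, with medians of 7.595 in Smad3-/- ESCs and 7.315 in WT ESCs, and of 12 markers of differentiated lineages 3 were expressed, with medians of 7.725 in Smad3-/- ESCs and 7.65 in WT ESCs. The median gene difference was 0.04 over the fibroblast list, with 8 above 0 and 6 below, and -0.04 over the lineage list, with 4 above 0 and 7 below. Pdgfrb of the fibroblast list (0.99) and Krt18 of the lineage list (0.59) were the markers past 1.5-fold, while Col1a1, the expressed fibroblast marker, had -0.22 with 40 of 53 probe sets lower. The part of these markers in the values given here was not tested. Smad3 itself had 1 probe set at 6.79 in Smad3-/- ESCs and 9.29 in WT ESCs, 5.66-fold lower, while 7 of its 16 probe sets were past 1.5-fold in the other direction and the median difference was 0.375. Which probe sets lie in the deleted part is not known here, and every direction given rests on the labels.

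None of the 35 measured genes passed 1.5-fold in either direction, against 1.82% of all genes (1.14% higher and 0.685% lower) and 1.08% of expressed genes. None of their brightest probe sets passed it either, against 4.54% of all genes. Their differences lay between -0.51 for Casp8 and 0.31 for Sesn2, 31 of the 35 lay within 0.2 of no difference, and their median was 0.01. Of the 35, 14 lay above the median of all genes, against 49.6% of all genes. Of the 35, 24 were expressed, and of these 16 were above 0 and 7 below, where 72.9% of all expressed genes were above 0.

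**Figure D1:**
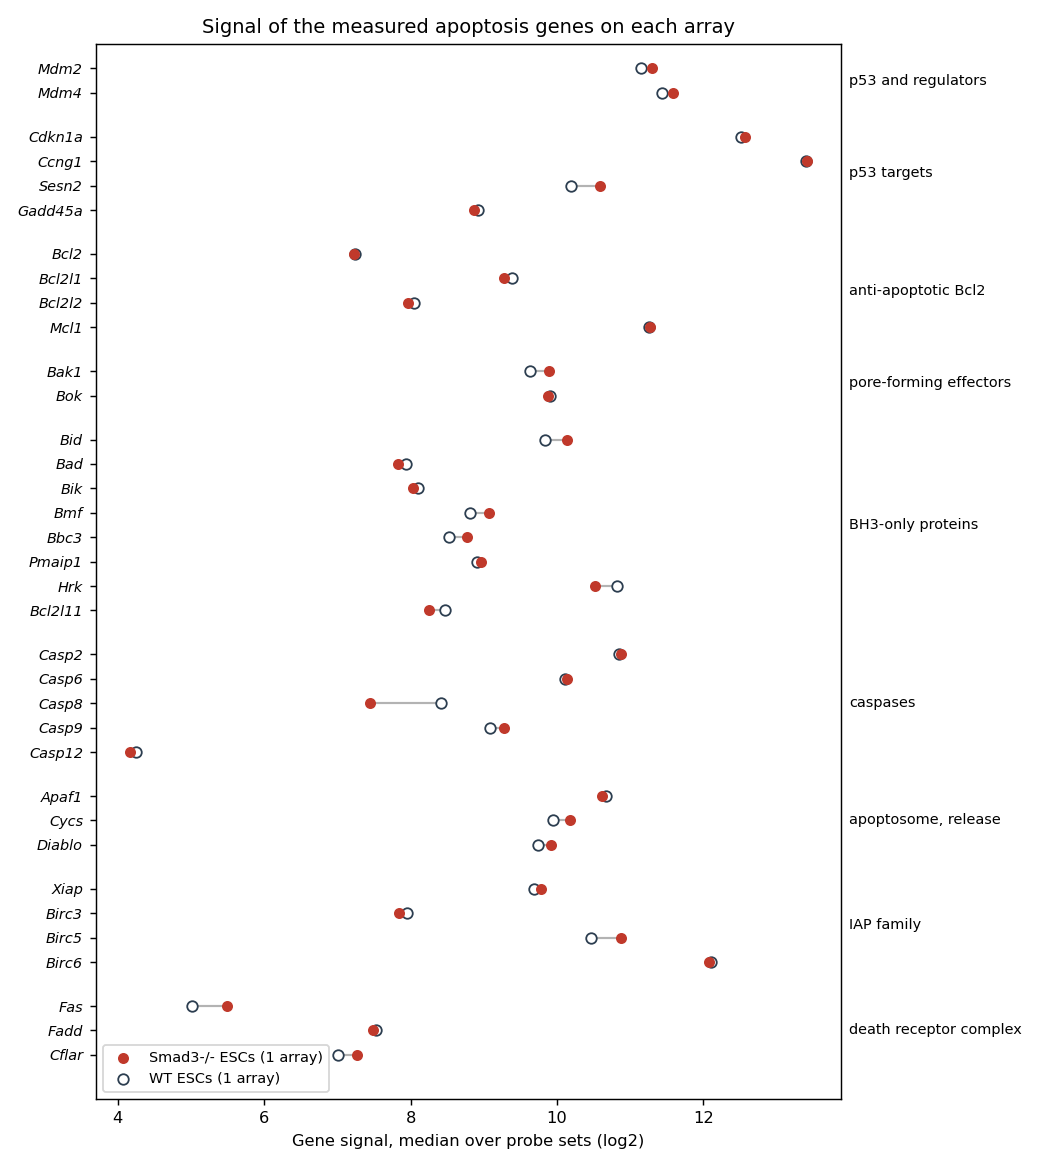
Gene signal (log2, median over probe sets) of the 35 measured genes in Smad3-/- ESCs (filled red) and WT ESCs (open), 1 array each, in rows by role. The paired points lie close together in most rows, and the widest gap is that of Casp8, at 7.44 in Smad3-/- ESCs and 8.42 in WT ESCs.

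Both measured regulators of p53 were expressed and differed little, and their median of 0.0775 turned to -0.09 at the brightest probe set. Mdm2, the ubiquitin ligase that marks p53 for degradation, had a signal of 11.30 in Smad3-/- ESCs and 11.145 in WT ESCs, with a difference of 0.085 and 9 of 14 probe sets higher. Mdm4, the Mdm2 relative that blocks the activation domain of p53, had 11.59 in Smad3-/- ESCs and 11.43 in WT ESCs. Its difference was 0.07, with 12 of 17 probe sets higher, but the brightest of them was lower by 0.29.

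Of the 4 targets of p53 that act in arrest and stress responses, 3 were above 0 and 1 below, with a median of 0.095 that stayed above 0 in each alternative setting. Sesn2, a stress-induced inhibitor of mTORC1, had the highest difference of all measured members. Its signal was 10.58 in Smad3-/- ESCs and 10.19 in WT ESCs, a difference of 0.31 (1.24-fold), and all 13 probe sets were higher in Smad3-/- ESCs, by 0.03 to 0.60. Of 9069 genes with 10 or more probe sets 2.70% had all of them higher. Sesn2 was the only such gene among the 18 apoptosis genes of that size, a count too small to compare with that share. By the size of its difference Sesn2 held place 453 among the 8185 expressed genes, counted from the top. Cdkn1a, the cyclin-dependent kinase inhibitor p21 and the best known target of p53 in arrest, had 12.57 in Smad3-/- ESCs and 12.51 in WT ESCs. The difference over its 5 probe sets was 0.16, with 4 higher and only the dimmest lower, by 0.15. Ccng1, the cyclin G1 gene induced by p53, read 13.42 in Smad3-/- ESCs and 13.40 in WT ESCs, and its difference was -0.03, with 7 of 9 probe sets lower. Gadd45a, a DNA damage-induced regulator of growth arrest, had 8.87 in Smad3-/- ESCs and 8.92 in WT ESCs, and its difference of 0.03 was small against an SD of 0.29 between its 7 probe sets.

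To set these targets beside their regulatory sequence, the 250 bases before each annotated transcript start were read from RefSeq (GRCm38.p6, a build other than the mm8 of the arrays) for the 36 of 39 genes that matched, in 49 windows. Bik, Pmaip1 and Tradd had no window. The 10-base p53 half-site, whose consensus reads the same on both strands, was found for 8 genes (22.2%). The share over all 27025 genes with a window was 8.2%. The 8 were Cdkn1a, Mdm2, Ccng1, Gadd45a, Bmf and Birc5 of the measured genes and Trp53 and Bax of the others. The list was made to include p53 targets, and its windows had a median of 60.4% G and C, against 52.4% over all windows. These shares are therefore only a description. The palindromic Smad-binding sequence GTCTAGAC was in none of the 36 and in 0.2% of all genes, and so overlapped no half-site. Cdkn1a and Mdm2 are shown for their half-sites, in capitals, and Sesn2 as the gene with the highest difference. The Cdkn1a window at chr17:29090729-29090978 (plus strand) held 2 half-sites and a second annotated Cdkn1a start held 0, the Mdm2 window at chr10:117710759-117711008 (minus strand) held 1, and the Sesn2 window at chr4:132510457-132510706 (minus strand) held 0.
Cdkn1a: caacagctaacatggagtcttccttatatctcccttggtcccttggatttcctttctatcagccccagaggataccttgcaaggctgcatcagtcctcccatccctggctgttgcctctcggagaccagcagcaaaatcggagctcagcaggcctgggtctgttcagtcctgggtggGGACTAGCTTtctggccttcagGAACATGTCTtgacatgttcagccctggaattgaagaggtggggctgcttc
Mdm2: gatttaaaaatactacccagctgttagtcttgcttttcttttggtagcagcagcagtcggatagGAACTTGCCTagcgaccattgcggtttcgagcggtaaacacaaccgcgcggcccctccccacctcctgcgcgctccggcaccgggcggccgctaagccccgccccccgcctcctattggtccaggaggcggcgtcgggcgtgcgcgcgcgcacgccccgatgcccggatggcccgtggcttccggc
Sesn2: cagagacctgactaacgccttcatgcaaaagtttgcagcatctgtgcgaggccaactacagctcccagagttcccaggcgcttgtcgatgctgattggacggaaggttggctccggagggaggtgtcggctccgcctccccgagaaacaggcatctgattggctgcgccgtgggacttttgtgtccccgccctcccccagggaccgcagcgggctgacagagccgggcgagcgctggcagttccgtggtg
The half-site is a match of letters and not a measured binding site. The 6 measured genes that held a match had differences between -0.03 (Ccng1) and 0.26 (Bmf), while Sesn2 and Casp8, at either end of the range, held none in these windows.

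The 4 anti-apoptotic Bcl2 genes had a median difference of 0.045, which turned to -0.04 after quantile normalization. Mcl1, a short-lived protein that holds the BH3-only proteins and Bak1 in check, was higher at 9 of its 10 probe sets, by 0.09 to 0.43, and lower at the remaining probe set by 0.07. Its signal was 11.27 in Smad3-/- ESCs and 11.26 in WT ESCs, since the probe sets in the middle of the range hardly moved, and its difference was 0.185. Bcl2l1, which encodes Bcl-xL, read 9.27 in Smad3-/- ESCs and 9.39 in WT ESCs, and the difference was 0.06, with 10 of 15 probe sets higher and 1 lower by 0.75. Bcl2l2, which encodes Bcl-w, had 7.96 in Smad3-/- ESCs and 8.04 in WT ESCs with a difference of 0.03, below the expression floor. Bcl2, the founder of the family, was also below the floor, with 7.225 in Smad3-/- ESCs and 7.235 in WT ESCs. Its 10 probe sets scattered from -0.91 to 1.45 around a difference of -0.195, and the mean over them was -0.008.

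Of the proteins that form the mitochondrial pore, Bak1 and Bok were measured. Bak1 had 9.895 in Smad3-/- ESCs and 9.635 in WT ESCs, but its probe sets split evenly, 4 higher and 4 lower, and their median difference was -0.015. Bok, a relative that can act without the BH3-only proteins, had 9.87 in Smad3-/- ESCs and 9.90 in WT ESCs, with a difference of -0.04 and 5 of 7 probe sets lower.

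The 8 BH3-only genes, the sensors that pass stress signals to the Bcl2 proteins, had a median of -0.10, with 6 below 0 and 2 above. That median was below 0 in each alternative except subtraction of the gene signals, where it was 0.0. Pmaip1, the p53 target Noxa that binds Mcl1, was lower at 6 of 7 probe sets, by 0.06 to 0.41, with a signal of 8.96 in Smad3-/- ESCs and 8.90 in WT ESCs and a difference of -0.15. Bad, which binds Bcl-xL when survival signals are withdrawn, was below the expression floor at 7.83 in Smad3-/- ESCs and 7.935 in WT ESCs. It was lower at 5 of 6 probe sets with a difference of -0.175, but its brightest probe set was higher by 0.13. Bcl2l11, which encodes Bim, the activator that ERK signaling marks for degradation, was below the floor with 8.25 in Smad3-/- ESCs and 8.47 in WT ESCs, with a difference of -0.13 and 11 of 15 probe sets lower. Hrk, a BH3-only gene best known from neurons, was read by only 2 probe sets, of which the brighter had 11.11 in Smad3-/- ESCs and 11.69 in WT ESCs and the dimmer 9.93 in Smad3-/- ESCs and 9.96 in WT ESCs. Its difference of -0.305 is the midpoint of these unequal values.

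The genes that ran the other way were Bmf and Bbc3. Bmf, a BH3-only protein that senses detachment from the matrix, had 9.075 in Smad3-/- ESCs and 8.815 in WT ESCs, a difference of 0.26, with 4 of 6 probe sets higher and the brightest lower by 0.15. Bbc3, the p53 target Puma, read 8.77 in Smad3-/- ESCs and 8.52 in WT ESCs, and its difference of 0.09 went with a value of -0.25 at the brightest of its 9 probe sets. Bid, which links death receptors to mitochondria after cleavage by Casp8, had 10.13 in Smad3-/- ESCs and 9.83 in WT ESCs, although its probe set differences had a median of -0.07. Bik, a BH3-only protein of the endoplasmic reticulum, was below the floor with 8.035 in Smad3-/- ESCs and 8.095 in WT ESCs with a difference of -0.025. A single bright probe set of Bik read 9.96 in Smad3-/- ESCs and 10.87 in WT ESCs, a difference of -0.91, and the other 9 lay within 1.5-fold.

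**Figure D2:**
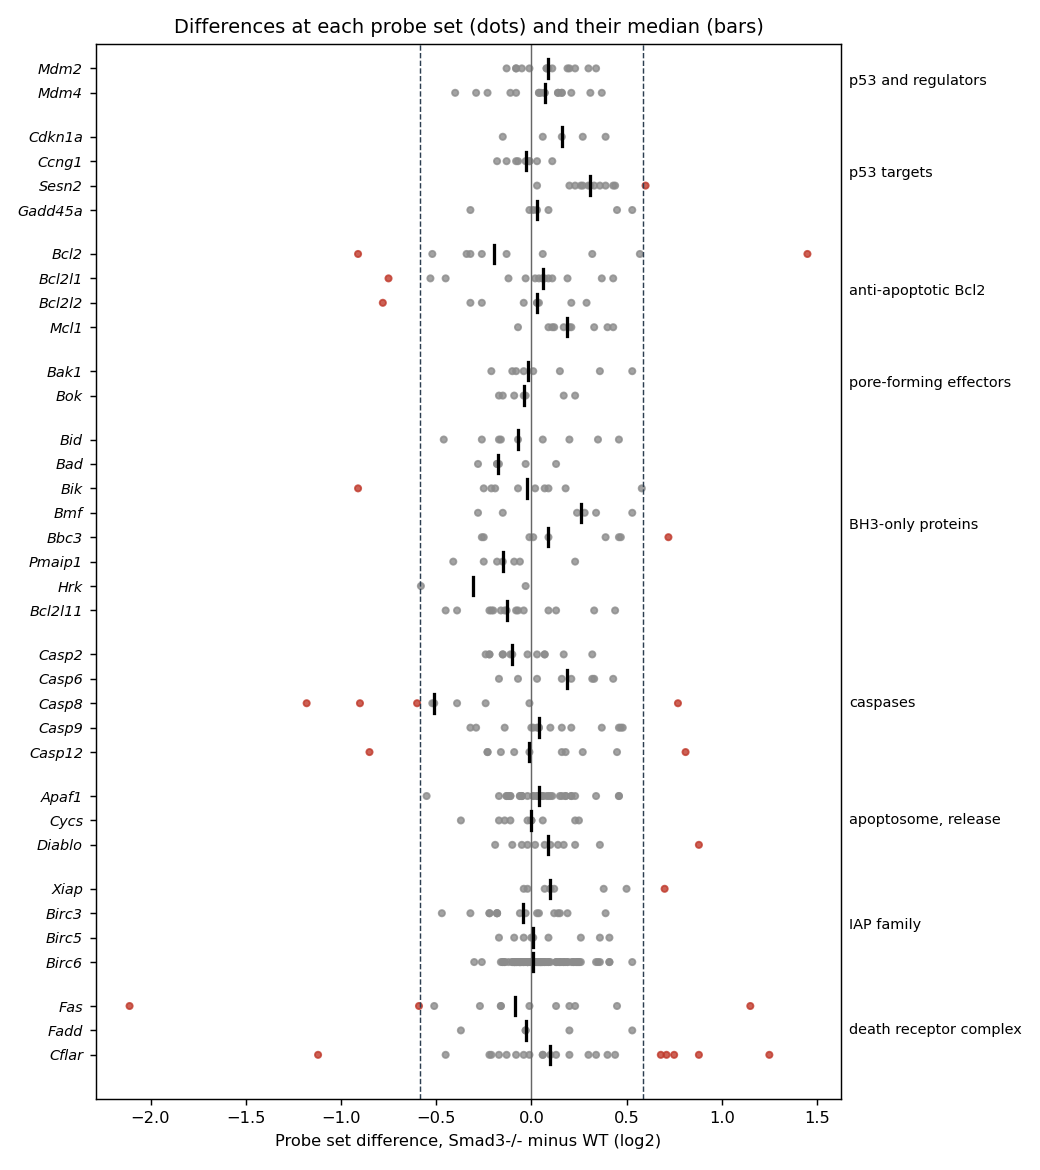
Difference at each of the 467 probe sets (dots, Smad3-/- minus WT, log2) with the median of each gene (black bar), in rows by role. Dashed lines mark 1.5-fold and red dots lie beyond it. All dots of Sesn2 lie right of 0, while those of Bcl2, Fas and Cflar spread widely to both sides.

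Among the caspases, Casp8 held the lowest value of all 35 genes. It is the initiator caspase of death receptors and also restrains necroptosis. Its 9 probe sets, from the dimmest to the brightest, read 6.31, 5.99, 7.40, 7.44, 7.30, 8.22, 8.10, 8.41 and 8.69 in Smad3-/- ESCs, against 5.54, 6.51, 7.79, 8.34, 8.48, 8.46, 8.70, 8.42 and 9.20 in WT ESCs. All but the dimmest were lower in Smad3-/- ESCs, 3 of them past 1.5-fold, and the dimmest was higher by 0.77. The gene difference was -0.51 (1.42-fold lower), which is rank 176 of 16358 genes from the lowest up, and the brightest probe set gave the same -0.51. The gene signals fell on different probe sets. That of 7.44 in Smad3-/- ESCs came from a probe set that read 8.34 in WT ESCs. That of 8.42 in WT ESCs came from a probe set that read 8.41 in Smad3-/- ESCs. The gene signals themselves thus differed by -0.98. This was the only value past 1.5-fold among the 35 genes when the gene signals were subtracted, a setting in which 4.50% of all genes passed, 2.45% higher and 2.05% lower. Both signals lay below the expression floor. The 250 bases before the annotated Casp8 start, at chr1:58802252-58802501 (plus strand) of GRCm38.p6, are shown because Casp8 carried the largest difference. They held 0 p53 half-sites, so no letter is in capitals, and had 39.6% G and C, where the median was 60.4% over the member windows and 52.4% over all windows.
Casp8: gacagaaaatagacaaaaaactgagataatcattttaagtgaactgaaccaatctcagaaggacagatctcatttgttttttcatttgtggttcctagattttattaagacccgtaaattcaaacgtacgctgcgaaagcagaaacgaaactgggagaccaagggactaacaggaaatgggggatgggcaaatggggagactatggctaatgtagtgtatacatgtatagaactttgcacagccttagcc

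The other caspases lay within 0.2 of no difference. The median of all 5, -0.01, turned to 0.03 with the mean over probe sets and was -0.16 at the brightest probe set. Casp6, an effector caspase that cleaves lamins, had 10.13 in Smad3-/- ESCs and 10.11 in WT ESCs, with a difference of 0.185 and 6 of 8 probe sets higher, the brightest by 0.32. Casp2, an initiator caspase of the PIDDosome, had 10.88 in Smad3-/- ESCs and 10.85 in WT ESCs with a difference of -0.10 (8 of 13 lower). Casp9, the caspase of the apoptosome, had 9.28 in Smad3-/- ESCs and 9.09 in WT ESCs, with a difference of 0.04 and 11 of 15 probe sets higher. Casp12, known from endoplasmic reticulum stress in mice, was far below the expression floor, at 4.16 in Smad3-/- ESCs and 4.25 in WT ESCs, and its difference was -0.01.

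**Figure D3:**
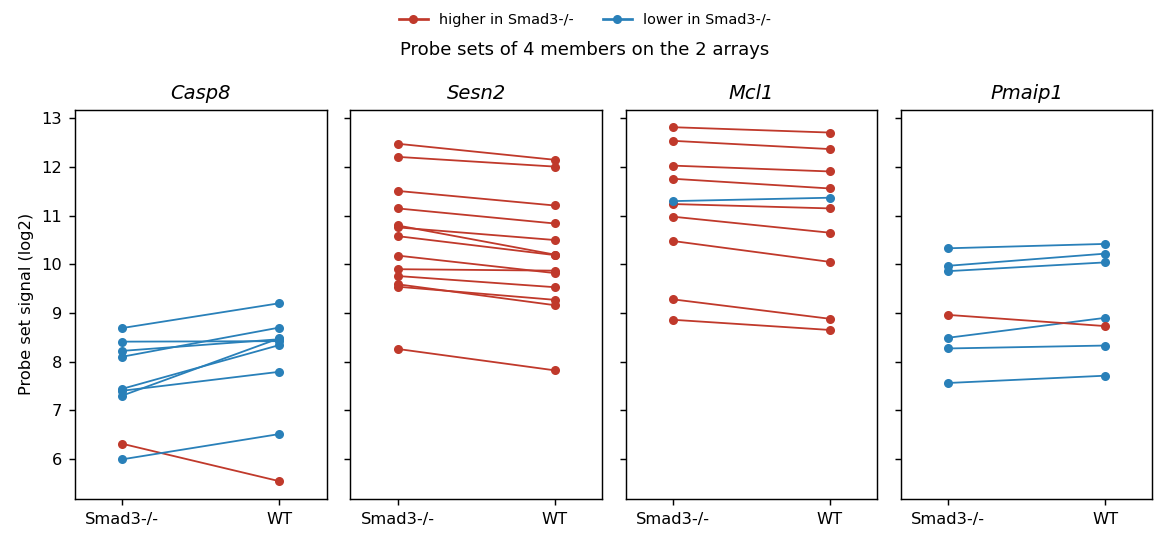
Signal of each probe set (log2) in Smad3-/- ESCs (left of each panel) and WT ESCs (right), for Casp8, Sesn2, Mcl1 and Pmaip1. Red lines are higher and blue lines lower in Smad3-/- ESCs: 8 of 9 lines are blue for Casp8, 13 of 13 red for Sesn2, 9 of 10 red for Mcl1 and 6 of 7 blue for Pmaip1.

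The proteins that act once mitochondria are opened differed by little, with a median of 0.04 that turned to -0.05 at the brightest probe set. Apaf1, the scaffold of the apoptosome, had 10.61 in Smad3-/- ESCs and 10.67 in WT ESCs over 35 probe sets, with a difference of 0.04 and an SD of 0.19 between probe sets. Cycs, the gene of cytochrome c, had 10.18 in Smad3-/- ESCs and 9.94 in WT ESCs, and its probe sets gave a difference of 0.0, with 3 higher, 5 lower and 3 equal. Diablo, which encodes the IAP antagonist Smac, had 9.92 in Smad3-/- ESCs and 9.735 in WT ESCs, with a difference of 0.085 and 1 of 12 probe sets past 1.5-fold, at 0.88.

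The IAP genes had a median of 0.01, and -0.025 with the median of all genes set to 0. Xiap, the direct inhibitor of Casp9 and the executioner caspases, had 9.78 in Smad3-/- ESCs and 9.68 in WT ESCs, a difference of 0.10 with 7 of 9 probe sets higher. Birc6, a very large ubiquitin ligase, was read by 91 probe sets, more than any other of these genes. None of the 91 was past 1.5-fold, and its signal was 12.08 in Smad3-/- ESCs and 12.10 in WT ESCs with a difference of 0.01. Birc5, which encodes survivin, a subunit of the chromosomal passenger complex in mitosis, had 10.87 in Smad3-/- ESCs and 10.46 in WT ESCs, yet its probe sets had a median difference of 0.01, with 5 of 9 higher. Birc3, an IAP of TNF receptor signaling, had 7.84 in Smad3-/- ESCs and 7.955 in WT ESCs, and a difference of -0.045. The RefSeq table lists Birc2 and Birc3 as synonyms of each other, so this name rests on the platform's current symbol.

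All 3 measured genes of the death receptor complex lay below the expression floor. Fas, the death receptor itself, had 5.485 in Smad3-/- ESCs and 5.015 in WT ESCs. Its 12 probe sets ranged from -2.11 to 1.15 around a difference of -0.085, and the brightest read 10.75 in Smad3-/- ESCs and 10.91 in WT ESCs. Fadd, the adaptor that recruits Casp8, had 7.49 in Smad3-/- ESCs and 7.52 in WT ESCs with a difference of -0.03. Cflar, the inactive relative of Casp8 that blocks it at the receptor, had 7.27 in Smad3-/- ESCs and 7.01 in WT ESCs. Of its 23 probe sets 5 were past 1.5-fold higher and 1 lower, all 6 of them dimmer than the 3 brightest, which gave -0.08, 0.06 and -0.21, and its difference was 0.10.

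The pro-apoptotic genes were then set against the anti-apoptotic genes. The 20 measured pro-apoptotic genes (the pore-forming, BH3-only and caspase genes with Apaf1, Cycs, Diablo, Fas and Fadd) had a median difference of -0.0275, with 13 below 0, 6 above and 1 at 0. The 9 measured anti-apoptotic genes (the anti-apoptotic Bcl2 genes, the IAPs and Cflar) had a median of 0.03 (-0.0079 after quantile normalization), with 7 above 0 and 2 below. The median of all genes was 0.035 and 57.5% of them were above 0, so the anti-apoptotic genes lay at the level of all genes and the pro-apoptotic genes below it. The gap of -0.0575 was small against the SD between genes, 0.17 in the pro-apoptotic and 0.11 in the anti-apoptotic group, and the groups overlapped, from -0.51 to 0.26 and from -0.195 to 0.185. Among expressed genes the medians were 0.0 for 13 pro-apoptotic and 0.06 for 5 anti-apoptotic genes, against 0.08 for all expressed genes. The gap kept its direction under the 9 alternative settings fixed for it, from -0.145 to -0.045. Of these, centring on the median of all genes could not change it, since it takes the same amount from every gene. The gap was 0.035 when the gene signals were subtracted.

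**Figure D4:**
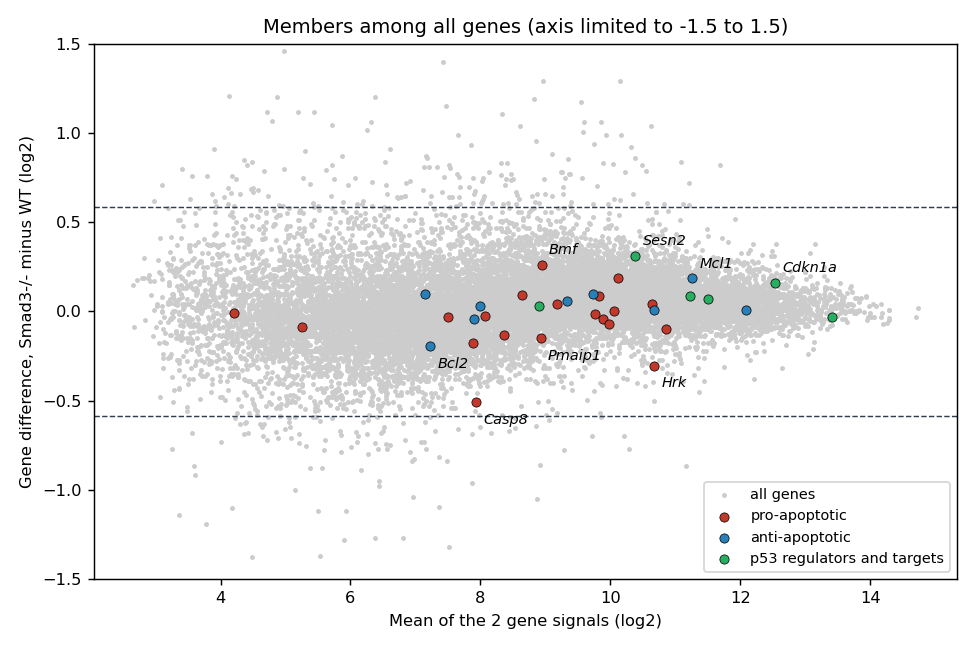
Gene difference (Smad3-/- minus WT, log2) against the mean of both gene signals (log2) for all genes (grey) and the 35 measured genes by side (red, blue, green), with dashed lines at 1.5-fold. All 35 lie between the lines, with Casp8 nearest to the lower line. The vertical axis leaves out 15 genes beyond 1.5 log2 units, none of them one of the 35.

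**Figure D5:**
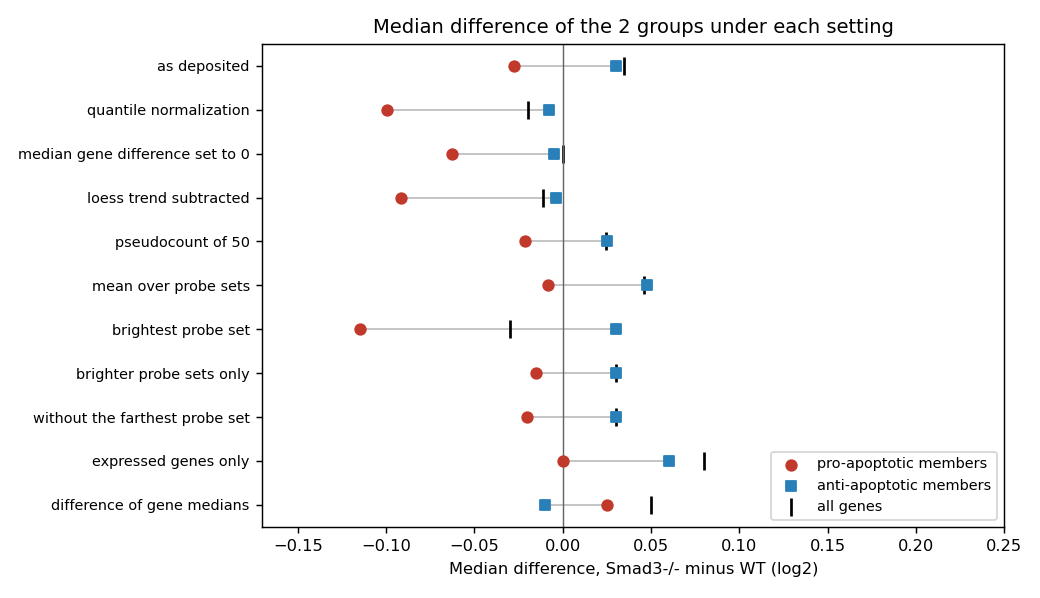
Median difference (Smad3-/- minus WT, log2) of the pro-apoptotic (red circles) and anti-apoptotic genes (blue squares) and of all genes (black ticks) under each processing setting. The circle lies left of the square in every row except the last, where gene signals were subtracted and the medians were 0.025 and -0.01.

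At the level of single probe sets, 24 of the 467 were past 1.5-fold (5.14%), 13 higher and 11 lower, against 9.59% of all probe sets (5.95% higher and 3.65% lower). They fell in 12 genes, and 22 of the 24 were among the 162 whose mean signal lay below the median of all probe sets (13.6%, against 16.7% of all probe sets there). Of the brighter 305, 2 were past 1.5-fold (0.656%, against 2.52%), namely the probe set of Bik described above and 1 of Sesn2 at 0.60. Of the 34 genes with 3 or more probe sets, 1 (Sesn2) had all of them higher and 0 all lower, against 5.05% and 2.30% of all such genes. Of the same 34, 9 had at least 75% of them in the direction of the gene difference, against 36.8% of all such genes, with 5 higher and 4 lower.

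Other genes of the pathway came from lists chosen by name with earlier results of these data known, so their counts are only a description. They were also within 1.5-fold throughout. Of 22 further p53 targets 20 were above 0, with a median of 0.125 (0.0735 when quantile normalized, 0.0743 without the loess trend), and of the 20 that were expressed 19 were above 0, where the background among expressed genes was 72.9%. The largest differences belonged to Ephx1, an epoxide hydrolase (0.31, 10 of 11 probe sets higher), Plk2, a stress-induced polo-like kinase (0.29, 16 of 16), Fbxw7, a ubiquitin ligase subunit (0.29, 15 of 16) and Eda2r, a death receptor (0.26, 6 of 7, but -0.13 at the brightest). Plk2 read 10.185 in Smad3-/- ESCs and 9.825 in WT ESCs. Among 12 upstream kinases and modifiers of p53 the median was 0.055, but 0.012 after quantile normalization, 0.017 after removal of the loess trend and 0.02 with the median of all genes set to 0. The checkpoint kinases differed in direction. Chek1, the kinase of the ATR branch, read 11.56 in Smad3-/- ESCs and 11.70 in WT ESCs and was lower at 14 of 15 probe sets with the other equal, with a difference of -0.13. Chek2, the kinase of the ATM branch, read 10.69 in Smad3-/- ESCs and 10.43 in WT ESCs and was higher at 16 of 17, with a difference of 0.22. Rchy1 (0.17) and Ep300 (0.12) were the others with the largest values.

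The 7 further Bcl2 family genes had a median of -0.01. The mitophagy receptor gene Bnip3 was higher at all 9 probe sets (0.23) and Bcl2l13 lower at all 9 (-0.09). Bcl10 had 0.12, but -0.17 at its brightest probe set, and Bcl2l12 had -0.05. The small medians of this and the next lists changed sign with the setting, here to 0.01 for expressed genes. The caspase list had -0.0064 after quantile normalization, and the death receptor list had 0.011 when probe sets were averaged. Larger shifts came with expressed genes only, to 0.15 for the caspase list (5 genes) and 0.17 for the death receptor list (7 genes). By the brightest probe set the caspase list had 0.02 and the death receptor list -0.115. Of 10 further caspases and substrates, with a median of 0.0225, the poly(ADP-ribose) polymerase gene Parp1 had 0.15, with 26 of 28 probe sets higher and 0 lower, and Aifm1, the gene of apoptosis-inducing factor, had 0.15. The subunits of the DNA fragmentation factor ran apart in their gene differences, the nuclease gene Dffb at 0.23 and the gene of its inhibitor, Dffa, at -0.15. At the brightest probe set Dffb had -0.01 and Dffa -0.52. The 16 further IAP and death receptor genes had a median of -0.0025. The NF-kappa-B inhibitor gene Nfkbia was higher at all 6 probe sets (0.285). Nfkb1 (0.22), Tnfrsf1b (0.18) and Traf2 (0.17, but -0.10 at the brightest) followed.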

How the data were processed

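Gene expression was measured in Smad3-/- ESCs and WT ESCs on 1 Affymetrix mouse exon array each. For each array the authors deposited a log2 value per probe set. The submitters' processing notes list Affymetrix Expression Console and mm8, and Partek and Genespring are the programs named in the methods. Steps of background correction, summarization and normalization were not given in the sources used here, so a scale difference between the arrays could move every gene alike. Base 2 was inferred from the values, whose maximum of 14.94 is 31433 on a linear scale if the base is 2, under the 65536 levels of a scanner.

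Gene names came from the annotation of the platform, where 209279 had 1 symbol, 4446 had several and were left out, and 15856 had none here. Of 16380 symbols 14190 were current in the RefSeq table of GRCm38.p6, 2145 were updated and 45 had no match. The table's assembly differs from the arrays' build and gave names, gene order and promoter sequence only. Gene values were medians over probe sets. All members are named. Those past 1.5-fold, or among the 10 largest absolute differences with at least 75% of 3 or more probe sets in the direction of the gene, are described by their probe sets, and of each further list up to 4 expressed genes with the largest absolute difference and any gene past 1.5-fold are named. Members and lists were chosen with earlier results of these data known. Probe sets bind with different strength, so signals were not ranked between genes.

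The settings varied were a pseudocount of 50, quantile normalization, removal of a loess trend (fraction 0.3), centring on the median of all genes, the mean, the brightest probe set, brighter probe sets only (mean signal at or above the median of all probe sets), leaving out the farthest probe set, expressed genes only, a 2-fold threshold and, chosen after seeing the data, subtraction of the gene medians. No comparison was tested. Precision is limited by the number of arrays. The steps were tested on simulated data with changes of 2-fold or more planted in expressed genes. That test does not cover differences as small as those of the members, or genes below the floor. The scripts ran in Python 3.11.15 with pandas 2.3.3, matplotlib 3.10.9, numpy 2.4.6 and statsmodels 0.14.6.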

Additional observations from a re-analysis of the deposited data

How the results depend on the processing

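No paired analysis was possible because there is only 1 array of either genotype. The count of genes past 1.5-fold was 0 higher and 0 lower as deposited and under all 10 alternatives fixed for it. Of these, the 2-fold threshold and expressed genes only could give no other count, since 0 had passed as deposited. The count was 0 higher and 1 lower (Casp8, -0.98) when gene medians were subtracted, a setting chosen after seeing the data. Over the alternatives other than that one, the pro-apoptotic median ranged from -0.115 (brightest probe set) to 0.0 (expressed genes only), the anti-apoptotic median from -0.0079 (quantile normalization) to 0.06 (expressed genes only), where 13 and 5 genes remain by construction. Of the 35 genes, 16 kept the sign of their difference in each alternative fixed for them and 19 did not. Casp8 ranged from -0.545 to -0.31 (pseudocount of 50), Sesn2 from 0.25 to 0.33, Mcl1 from 0.11 to 0.20 and Pmaip1 from -0.20 to -0.09. Several genes changed sign at the brightest probe set, and the cause was not tested. Among them were Bmf (-0.15), Mdm4 (-0.29), Bad (0.13), Bbc3 (-0.25), Cflar (-0.21) and Apaf1 (-0.13). With gene medians subtracted, Pmaip1 had 0.06, Bid 0.30 and Bak1 0.26, against -0.15, -0.07 and -0.015 as deposited. A difference was counted as kept when it moved by less than the SD over the probe sets of a gene or the genes of a group, a wide yardstick. A count of genes past the threshold was kept when it was equal. Of 505 values 472 were kept, including the counts that could only be 0 and the gap between the groups that centring could not change. Dim genes limit the depth, since single probe sets past 1.5-fold were 16.7% of those below the median signal and 2.52% of those above it.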

Other observations

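Around Casp8, in the gene order of GRCm38.p6, the measured neighbours lay between -0.01 and 0.32. Cflar, next to it on one side, had a difference of 0.10, Flacc1 beyond it 0.0 and Ndufb3 -0.01, while on the other side Trak2 had 0.32, Stradb 0.14 and C2cd6 0.04. Around Sesn2, Med18 had 0.35 and Phactr4 0.155 on one side and Atpif1 0.185 and Dnajc8 0.10 on the other, and the genes at the third place on each side had -0.01 (Rcc1) and -0.25 (Eya3). These neighbours were listed after the values of Casp8 and Sesn2 were known, and no explanation of them was tested.

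Birc5 had the widest gap, after Casp8 and Fas, between its gene signals, at 10.87 in Smad3-/- ESCs and 10.46 in WT ESCs (0.41), although the median over its probe sets was 0.01. The farthest probe set of Fas read 2.95 in Smad3-/- ESCs and 5.06 in WT ESCs, and that of Bcl2 read 7.04 in Smad3-/- ESCs and 5.59 in WT ESCs.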
